A study of Mus musculus with 12 samples.

Results

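The 10 genes described here were measured in fetal mouse gonads, and they were chosen by name: the transcription factor gene Nfe2l2, its restrainer Keap1, 6 genes whose products act in antioxidant defence (Nqo1, Gclc, Gclm, Txnrd1, Srxn1 and Prdx1), and Gpx4 and Acsl4 of the ferroptosis pathway. They are 10 of the 24411 gene symbols measured, and all 10 passed the filter on low values that left 16133 genes for testing. The samples were RNA of NR5A1(+) cells, gonadal somatic cells marked by the nuclear receptor NR5A1, from mice of the Nr5a1-hCD271 genotype. That genotype, which puts a surface tag under the Nr5a1 gene, was carried by all 5 groups. The Dfo XY group (n = 3) came from XY gonads explanted at E10.8 and kept for 19.2 h in culture with 150 µM Dfo, the iron chelator deferoxamine. The control XY (n = 3) and control XX (n = 2) groups were explants cultured for the same time without it. Gonads of E11.5 gave an XY group (n = 2) and an XX group (n = 2), labelled WT. Explants kept the aorta, mesonephros and mesenchyme beside the gonad, on filters in high-glucose DMEM with 10% horse serum. The E11.5 samples carry the same protocol text, so how they were collected is not settled by the labels. Nothing in the labels says that replicates came from separate embryos or litters, so the p-values measure only the spread between these samples, which may be technical.

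NRF2, the protein made from Nfe2l2, is held low by KEAP1, an adaptor that hands it to the CUL3 ubiquitin ligase for degradation. When reactive compounds modify KEAP1, NRF2 builds up, enters the nucleus with a small MAF partner and switches on genes for glutathione synthesis, quinone reduction and thioredoxin recycling. Much of this control acts on the protein, which RNA levels do not show. Ferroptosis is a death caused by iron-dependent peroxidation of membrane lipids. GPX4 removes lipid peroxides with glutathione and guards against it, whereas ACSL4 loads polyunsaturated fatty acids into membrane lipids and promotes it. Acsl4 is thus no guard, and Keap1 is no target that defends the cell but the restrainer of NRF2.

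Values are TPM, the deposited transcript abundance, a level that takes transcript length into account and sums to the same total in each library. Sequencing depth is unknown for such values. Between 14578 and 18931 symbols were above 0 in a library. The RNA gene Rpph1 took 19.5 to 23.6% of all TPM in Dfo XY libraries and 15.3 to 20.3% in control XY libraries, against 6.96 to 7.20% in control XX, 12.02 to 12.18% in E11.5 XY and 8.57 to 11.47% in E11.5 XX libraries. Every other gene's TPM falls where Rpph1 takes a larger share, so the groups were also compared under other scalings. Dfo XY replicates 1 and 2 held 13.6 and 24.6 TPM of Xist, an RNA of XX cells, against 0.28 TPM in replicate 3, so counts were also made without those 2 libraries. Replicates 1 and 2 also lay closer to each other than to replicate 3, with a median absolute log2 difference of 0.09 in Dfo XY and 0.08 in control XY, where pairs with replicate 3 differed by 0.19 to 0.20.

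The antioxidant response element, the DNA site that NRF2 binds with its MAF partner, was looked for as its core letters TGACNNNGC on either strand. The AP-1 letters TGACTCA and the hypoxia response core ACGTG were looked for in the same way. RefSeq promoter windows on GRCm38.p6, running from 250 bases before to 50 bases after a gene's start, were found for 9 of the 10 genes, in 14 windows. The antioxidant core lay in 5 of the 14 windows, of Nfe2l2, Gclm, Txnrd1, Srxn1 and Prdx1, and it is in 12.4% of all 32851 windows of that length. The Txnrd1 match is in 1 of that gene's 3 windows, at chr10:82858956-82859255, inside a gene that starts at 82833951. AP-1 letters lay in 2 of the 14, of Srxn1 and Prdx1, at 2 places each, and are in 5.2% of all windows. The hypoxia core lay in 2 of the 14, of Gclm and Keap1, and is in 19.6% of all windows. None of the 3 was in the windows of Nqo1, Gpx4 or Acsl4, which says only that those letters are not there. The stretches below are shown because they hold these letters in members whose levels follow, with the antioxidant core in capitals for Nfe2l2, Gclm, Txnrd1 and Prdx1, and both AP-1 matches in capitals for Srxn1. In Prdx1 the capitals also hold an AP-1 match that overlaps the antioxidant core. The antioxidant core counted for Srxn1 lies 28 bases after the start, outside the stretch shown. Looser forms of the core were not searched for, so the AP-1 label does not exclude them. They lie at chr2:75704880-75704913 (minus strand) for Nfe2l2, chr3:122245408-122245446 for Gclm, chr10:82859099-82859137 for Txnrd1, chr4:116685451-116685489 for Prdx1 and chr2:152105407-152105500 for Srxn1, the last 4 on the plus strand.
Nfe2l2: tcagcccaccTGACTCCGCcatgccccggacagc
Gclm: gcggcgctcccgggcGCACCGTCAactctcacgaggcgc
Txnrd1: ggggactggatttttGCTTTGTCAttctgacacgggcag
Prdx1: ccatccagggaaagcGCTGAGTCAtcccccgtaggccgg
Srxn1: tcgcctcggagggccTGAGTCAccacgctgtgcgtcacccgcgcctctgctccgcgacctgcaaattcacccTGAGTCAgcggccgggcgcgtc

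Gpx4 and Txnrd1 encode selenoproteins, in which a TGA codon inside the coding sequence is read as the amino acid selenocysteine and not as a stop. These 2 stretches, from the GENCODE M21 transcripts on mm10, are shown because that codon, in capitals, is what ties both enzymes to the selenium supply of the cell. The Gpx4 codon lies at chr10:80054737-80054739, in a stretch at chr10:80054713-80054763. The Txnrd1 codon, at chr10:82896037-82896039 in a stretch at chr10:82896013-82896045, is followed by 1 more codon before the stop. Both genes lie on the plus strand.
Gpx4 codon: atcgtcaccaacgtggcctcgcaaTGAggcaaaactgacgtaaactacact
Txnrd1 codon: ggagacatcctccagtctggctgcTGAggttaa

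In Dfo XY cells, 2 of the 10 genes were called higher than in control XY cells and none lower. Acsl4 was 2.21-fold higher and Nfe2l2 was 1.42-fold higher on the log2(TPM + 1) scale, which understates changes of low genes, whereas Gpx4 and Keap1 were not called. Of the 6 antioxidant genes none was called, although Gclc and Srxn1 were higher in every Dfo library than in every control library and Nqo1 was lower in every one. Calls required an adjusted p below 0.05 in limma, with Benjamini-Hochberg adjustment over all 16133 genes. By that rule 15.5% of all genes were called in this comparison, 4.98% as higher and 10.5% as lower. The question the comparison addresses is what iron chelation does to RNA levels in XY gonadal cells. Without the 2 Xist-holding Dfo libraries, 1 of the 10, Acsl4, was called. The median of all genes lay at -0.17 on the log2 scale and that of the 10 at 0.11, with 9 of them above the median of all genes. Under median-of-ratios scaling, under quantile normalization and without the 50 most abundant genes, 4 of the 10 were called higher, Gclc and Txnrd1 being added each time. The split over all genes was then 1520 higher and 1024 lower, 1291 and 1193, and 1177 and 1207, against 803 and 1695 on TPM as deposited.

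**Figure D1:**
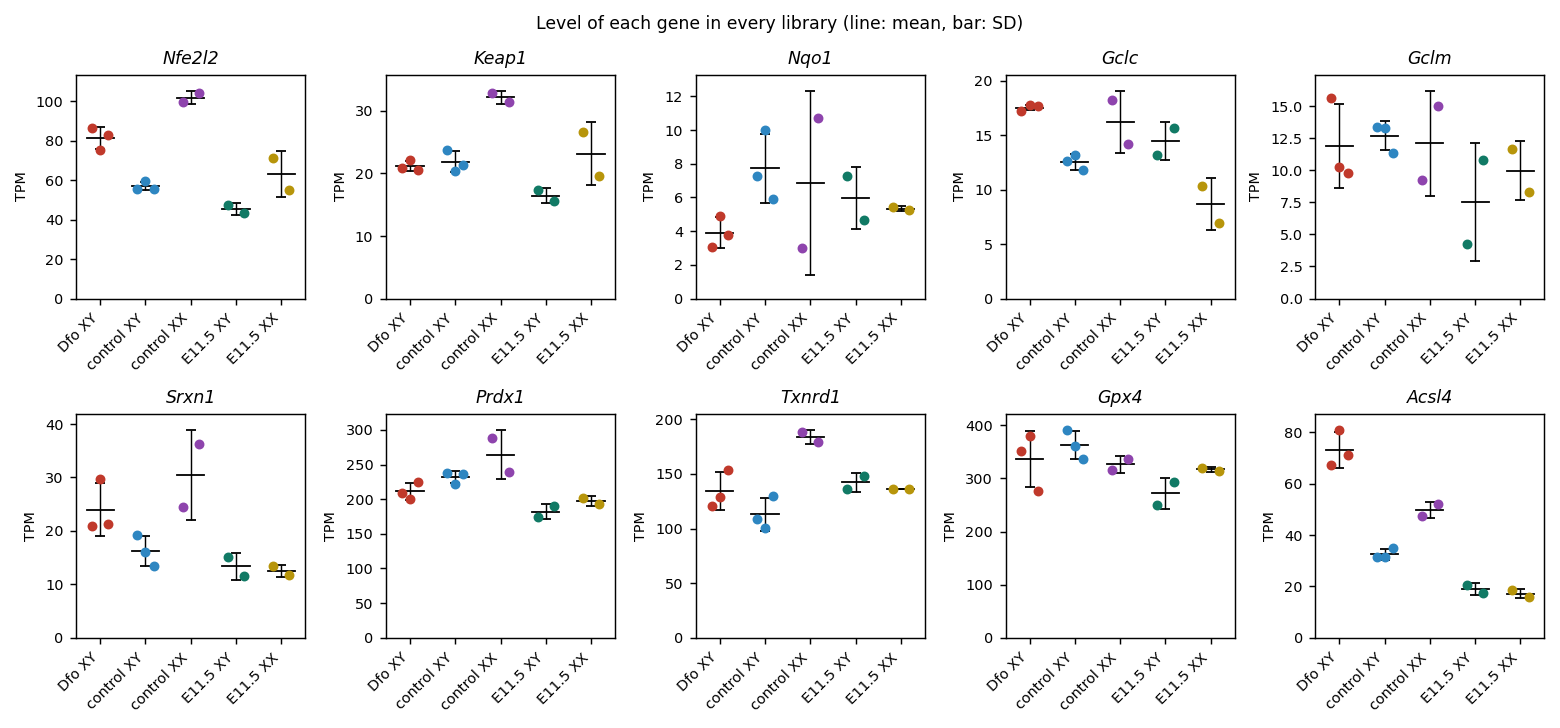
TPM of the 10 genes in each library (points) by group, with the mean (line) and SD (bar). The 3 Dfo XY libraries of Acsl4 sit between 67.3 and 80.8 TPM, above all 9 other libraries, whereas Gpx4 libraries of Dfo XY (277 to 379.8 TPM) and control XY (337 to 390.4 TPM) overlap.

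Nfe2l2 (ENSMUSG00000015839.6, chr2:75675513-75704641, minus strand on mm10) had 86.5, 75.6 and 82.8 TPM in Dfo XY libraries, against 55.8, 59.6 and 55.8 TPM in control XY libraries. Every Dfo library lay above every control library. The group means were 81.6 ± 5.5 and 57.1 ± 2.2 TPM (SD, n = 3 each), a log2 change of 0.51 ± 0.11 (SE) with an adjusted p of 0.00745. The call ended when replicates 1 and 2 of each XY culture group were averaged into 1 sample (adjusted p = 0.0615) and without the 2 Xist-holding Dfo libraries (adjusted p = 0.0885). Keap1 (ENSMUSG00000003308.15, chr9:21229730-21239361, minus strand) had 20.9, 22.2 and 20.6 TPM in Dfo XY libraries, against 23.8, 20.4 and 21.4 TPM in control XY libraries. These groups overlapped, and the log2 change of -0.04 ± 0.14 had an adjusted p of 0.877. An antisense gene overlaps Keap1, and it is not stated whether the counting used strand. The same limit holds for Gclm (Gm17494 antisense, Gm6061 on the same strand) and Txnrd1 (Gm38560 and Gm47073 antisense, Eid3 on the same strand). Gm24996 overlaps Nfe2l2 on the same strand.

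None of the enzymes of glutathione synthesis and quinone reduction was called in the fit of all 12 libraries on TPM as deposited. Gclc, the catalytic subunit of glutamate-cysteine ligase (ENSMUSG00000032350.9, chr9:77754535-77794485, plus strand), had 17.3, 17.8 and 17.7 TPM in Dfo XY libraries, against 12.6, 13.2 and 11.8 TPM in control XY libraries. Groups did not overlap, and the log2 change of 0.46 ± 0.17 had an adjusted p of 0.0905. Gclc was called higher in 4 of the 21 alternatives, the 3 other scalings and a limma fit of the compared libraries alone (adjusted p = 0.0292). Gclm, the modifier subunit of the same enzyme (ENSMUSG00000028124.15, chr3:122245557-122270732, plus strand), had 15.6, 10.3 and 9.75 TPM in Dfo XY libraries, against 13.4, 13.3 and 11.4 TPM in control XY libraries. Its groups overlapped, with Dfo replicate 1 above and replicates 2 and 3 below all controls, and the log2 change was -0.11 ± 0.29 (adjusted p = 0.837). Nqo1, the quinone reductase often used as a readout of NRF2 (ENSMUSG00000003849.8, chr8:107388225-107403206, minus strand), had 3.05, 4.89 and 3.78 TPM in Dfo XY libraries, against 7.26, 9.99 and 5.92 TPM in control XY libraries. Each Dfo library lay below each control library at these low levels, and the log2 change of -0.82 ± 0.35 was not called (adjusted p = 0.14). The shared estimate of spread took in control XX, whose libraries stood at 3.02 and 10.7 TPM, so this outcome is not firm. A fit of the compared libraries alone did not call Nqo1 either. With control XX replicate 1 or replicate 2 left out, it was called lower, at an unchanged log2 change of -0.82. Those fits held only 1 control XX library. Over the 21 alternatives its change ran from -0.97 to -0.63. Over all genes, groups did not overlap with Dfo XY higher for 11.6% and with Dfo XY lower for 26.5%, against 4 and 1 of the 10 genes.

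The peroxide-removing thiol enzymes were not called either. Srxn1, sulfiredoxin, which repairs overoxidised peroxiredoxins (ENSMUSG00000032802.8, chr2:152105516-152111376, plus strand), had 20.9, 29.8 and 21.4 TPM in Dfo XY libraries, against 19.2, 16.1 and 13.4 TPM in control XY libraries. Each Dfo library lay above each control library, and the log2 change of 0.53 ± 0.20 had an adjusted p of 0.0936. Prdx1, the peroxiredoxin that Srxn1 repairs (ENSMUSG00000028691.12, chr4:116685544-116700822, plus strand), had 209, 200.5 and 225 TPM in Dfo XY libraries, against 237, 221 and 236 TPM in control XY libraries. The groups overlapped, and the log2 change of -0.13 ± 0.09 had an adjusted p of 0.363. Txnrd1, the thioredoxin reductase of the cytosol (ENSMUSG00000020250.10, chr10:82833951-82897712, plus strand), had 121, 129 and 153 TPM in Dfo XY libraries, against 109, 100.2 and 129.6 TPM in control XY libraries. Its groups overlapped, and the log2 change of 0.25 ± 0.11 had an adjusted p of 0.156. With the replicate number as a block, Txnrd1 was called at an adjusted p of 0.0412, each Dfo library lying above the control library of its number.

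Of the ferroptosis pair, the driver rose and the guard was not called. Acsl4 (ENSMUSG00000031278.12, chrX:142317993-142390535, minus strand) had 67.3, 80.8 and 71.2 TPM in Dfo XY libraries, against 31.3, 31.3 and 34.9 TPM in control XY libraries. No library of the Dfo group came near the controls, and replicate 3, which held almost no Xist, stood between the other 2. The log2 change was 1.14 ± 0.12, with a 95% interval of 0.88 to 1.40 and an adjusted p of 5.41e-05. The call held in all 21 alternatives computed for it, with changes of 1.07 to 1.29 and adjusted p up to 0.00549. Gpx4 (ENSMUSG00000075706.10, chr10:80047166-80056439, plus strand), which encodes the lipid peroxidase, had 352, 379.8 and 277 TPM in Dfo XY libraries, against 390.4, 361 and 337 TPM in control XY libraries. Groups overlapped, Dfo replicate 3 being the lowest, and the log2 change was -0.12 ± 0.11 (adjusted p = 0.535) with a 95% interval of -0.37 to 0.13. Gpx4 and Prdx1 each have 2 copies elsewhere in the genome that match at least 200 bases at 95% identity or more, so their levels are uncertain to the extent that reads were split among copies.

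**Figure D2:**
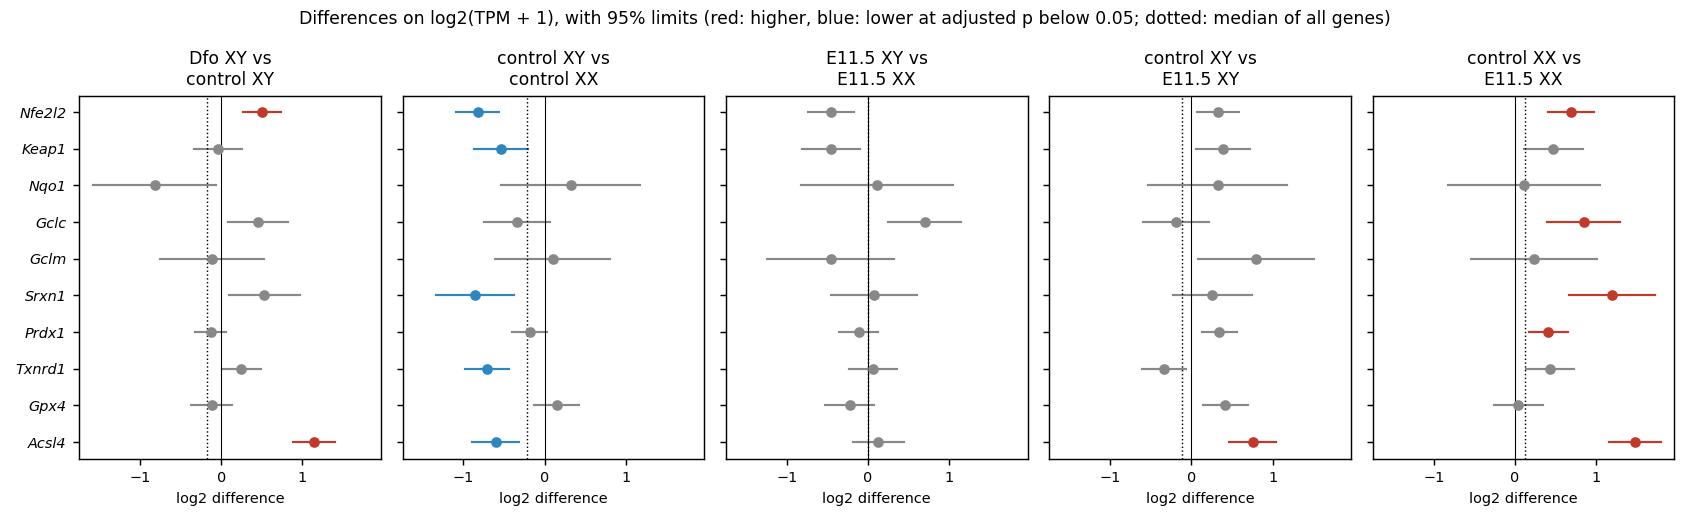
Log2 change of each of the 10 genes in each comparison (points) with its 95% interval (bars), red where limma called the gene higher and blue where lower, and the median of all 16133 genes as a dotted line. Acsl4 in Dfo XY cells (1.14) stands farthest to the right in the Dfo comparison, and 5 genes lie left of 0 and are called between control XY and control XX.

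In bulk samples, fewer cells of a type and less RNA per cell cannot be told apart. Markers of gonadal somatic cells summed to 486 to 559 TPM in Dfo XY libraries and to 651 to 789 TPM in control XY libraries, and 3 of the 6 were called lower, where 10.5% of all genes were. That count was 1 under median-of-ratios scaling and with replicates 1 and 2 averaged, and 0 without the 2 Xist-holding Dfo libraries. Nr5a1 itself was at 83.5 ± 4.0 TPM in Dfo XY and 109.7 ± 15.7 TPM in control XY (SD, n = 3 each), and its log2 change of -0.38 ± 0.14 was not called (adjusted p = 0.0778). Macrophage markers summed to 129 to 194 TPM in Dfo XY libraries and 94.6 to 182 TPM in control XY libraries. Erythroid markers summed to 1016 to 2566 TPM in Dfo XY and 249.8 to 1975 TPM in control XY libraries, with none of the 9 called and Hbb-bs at 0 in all libraries of both groups. Mesenchyme markers summed to 563 to 653 TPM in Dfo XY and 827 to 889 TPM in control XY libraries, with 3 of 6 called lower. Neural markers summed to 23.98 to 42.7 TPM in Dfo XY and 48.9 to 131 TPM in control XY libraries, with 2 of 5 called lower. Mesonephric epithelial markers summed to 142 to 221 TPM in Dfo XY and 227 to 276 TPM in control XY libraries, with 2 of 6 called lower. Germ cell markers summed to 17.8 to 24.7 TPM in Dfo XY and 27.1 to 29.5 TPM in control XY libraries, with 1 of 7 called lower. With replicates 1 and 2 averaged, these last 3 counts were each 0. The part of these cells in the changes of Acsl4 and Nfe2l2 was not tested.

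Ratios of partners within a library are untouched by the scaling of that library, and they were chosen after the levels had been seen, so they are given without a test. The Nfe2l2 to Keap1 ratio was 3.86 ± 0.39 in Dfo XY and 2.62 ± 0.29 in control XY (SD, n = 3 each), with 3.41 as the lowest Dfo library and 2.92 as the highest control library. It was 3.17 ± 0.20 in control XX, 2.76 ± 0.02 in E11.5 XY and 2.74 ± 0.10 in E11.5 XX (SD, n = 2 each). The Acsl4 to Gpx4 ratio was 0.220 ± 0.034 in Dfo XY and 0.0901 ± 0.0121 in control XY, and these libraries did not overlap. Control XX stood between them at 0.153 ± 0.003, above E11.5 XY at 0.0705 ± 0.016 and E11.5 XX at 0.0544 ± 0.0054. The Gclc to Gclm ratio was 1.55 ± 0.39 in Dfo XY, with 1.10 as its lowest library, and 0.991 ± 0.049 in control XY, with 1.04 as its highest. It spread widely in control XX (1.47 ± 0.73) and E11.5 XY (2.28 ± 1.15), and was 0.865 ± 0.039 in E11.5 XX.

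**Figure D3:**
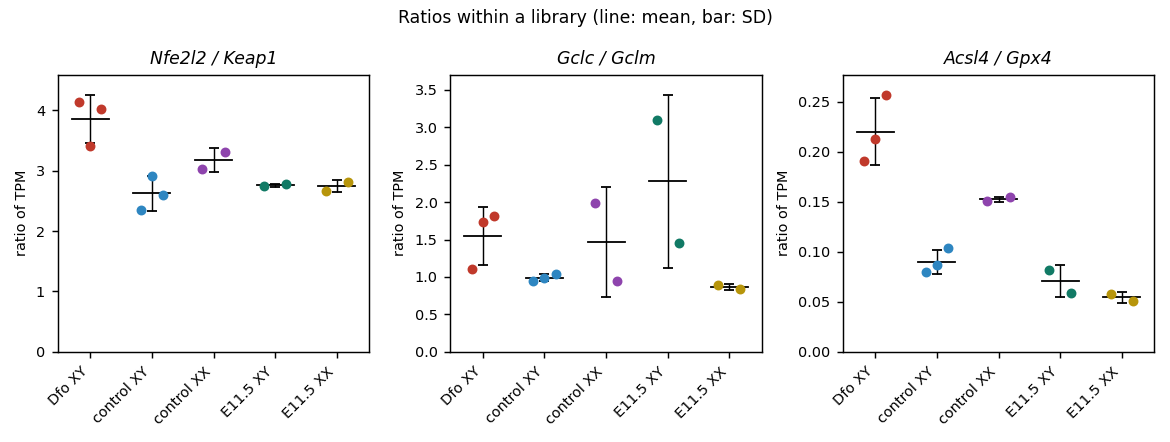
Ratio of the TPM of paired genes in each library (points) by group, with the mean (line) and SD (bar). The lowest Dfo XY library lies above the highest control XY library in all 3 ratios, for Nfe2l2 to Keap1 at 3.41 against 2.92.

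Among the 10 genes, Acsl4 alone met the rule for naming genes of like pattern, as the called member with the smallest adjusted p. Over the 12 libraries and 11371 genes that averaged 5 TPM or more in a group, the genes whose log2 levels followed it most closely were Sc5d (Pearson's r = 0.984), Tmem41b (r = 0.983) and Cyp51 (r = 0.982). Sc5d and Cyp51 encode enzymes of cholesterol synthesis, and Tmem41b an endoplasmic reticulum protein that moves lipids between membrane leaflets. Sc5d averaged 119.7 TPM in Dfo XY, 53.2 TPM in control XY, 88.5 TPM in control XX, 21.1 TPM in E11.5 XY and 17.8 TPM in E11.5 XX. Cyp51 averaged 274 TPM in Dfo XY, 116 TPM in control XY, 218 TPM in control XX, 43.1 TPM in E11.5 XY and 39.7 TPM in E11.5 XX. The libraries fall into separate groups, so these values of r mostly follow the order of the group means.

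**Figure D4:**
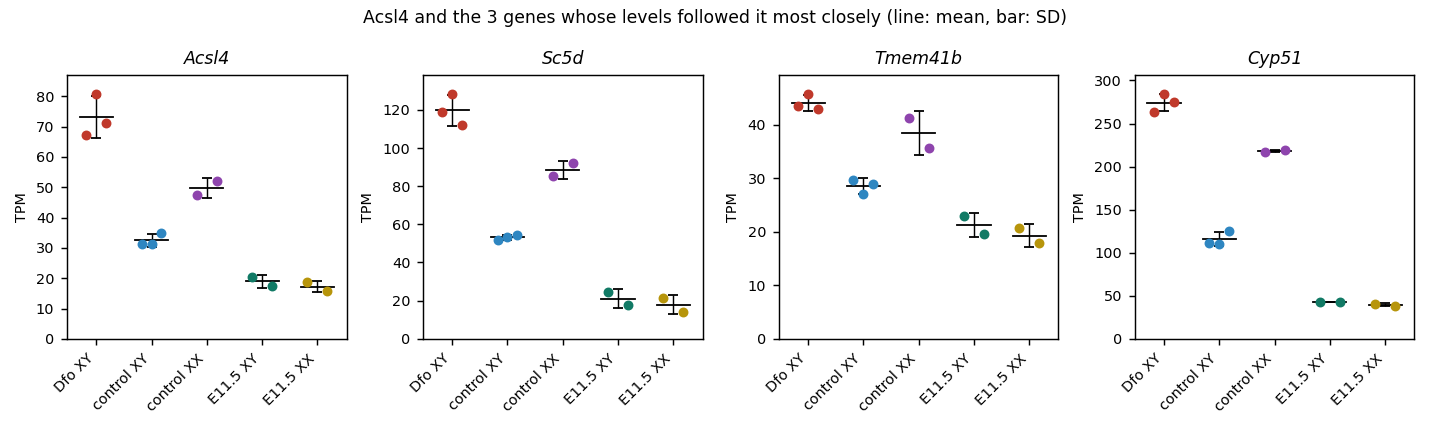
TPM in each library (points) by group, with mean (line) and SD (bar), for Acsl4 and the 3 genes that followed it most closely. In all 4 panels Dfo XY has the highest mean, control XX stands above control XY, and both E11.5 groups are lowest, Sc5d averaging 119.7 TPM in Dfo XY and 17.8 TPM in E11.5 XX.

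Between the sexes in culture, 5 of the 10 genes were called lower in control XY than in control XX cells and none higher. Over all genes 25.2% were called, 2.97% as higher and 22.2% as lower. Nfe2l2 had 55.8, 59.6 and 55.8 TPM in control XY libraries, against 99.7 and 104 TPM in control XX libraries, a gap with no overlap. Its log2 change was -0.83 ± 0.12 (adjusted p = 0.00116). Txnrd1 had 109, 100.2 and 129.6 TPM in control XY, against 188 and 179 TPM in control XX, and its change was -0.70 ± 0.12 (adjusted p = 0.00256). Acsl4, at 31.3, 31.3 and 34.9 TPM in control XY, against 47.5 and 52.1 TPM in control XX, changed by -0.60 ± 0.13 (adjusted p = 0.0075). All control XY libraries of these 3 genes lay below both control XX libraries. Srxn1 changed by -0.86 ± 0.22 (adjusted p = 0.0157), with 19.2, 16.1 and 13.4 TPM in control XY and 24.5 and 36.4 TPM in control XX. Keap1 changed by -0.54 ± 0.15 (adjusted p = 0.022), with 23.8, 20.4 and 21.4 TPM in control XY and 32.9 and 31.5 TPM in control XX.

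These calls depended on the scaling. Under median-of-ratios scaling and without the 50 most abundant genes, 2 of the 5, Nfe2l2 and Txnrd1, were called, and under quantile normalization none. The calls over all genes split into 529 higher and 499 lower, 513 and 735, and 291 and 323 under these 3, against 479 and 3585 on TPM as deposited. Leaving out 1 library ended the call of Keap1 without control XY replicate 2 (adjusted p = 0.0803), control XX replicate 1 (0.11) or control XX replicate 2 (0.0739). Without control XX replicate 2, Srxn1 (0.152) and Acsl4 (0.0599) were not called either. Averaging replicates 1 and 2 of the XY culture groups also ended the call of Keap1 (0.0805). In the other 5 genes the log2 changes ran between -0.34 for Gclc and 0.32 for Nqo1, whose control XX libraries stood at 3.02 and 10.7 TPM. The 7 genes lower in every control XY than in every control XX library, the 5 above with Gclc and Prdx1, compare with 41.4% of all genes. Gonadal somatic markers summed to 651 to 789 TPM in control XY and 1263 to 1352 TPM in control XX libraries, and erythroid markers to 249.8 to 1975 TPM in control XY and 158 to 178 TPM in control XX libraries, with 5 of 6 called lower and 4 of 9 called higher in control XY. Macrophage markers summed to 94.6 to 182 TPM in control XY and 56.0 to 78.9 TPM in control XX libraries, with 4 of 9 called higher. Neural markers summed to 48.9 to 131 TPM in control XY and 23.1 to 27.9 TPM in control XX libraries, with 4 of 5 called higher. Mesenchyme markers summed to 827 to 889 TPM in control XY and 1232 to 1313 TPM in control XX libraries, with 4 of 6 called lower. Their part in these changes was not tested.

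At E11.5 none of the 10 genes was called between XY and XX in limma, and 3, Nfe2l2, Keap1 and Gclc, had an unadjusted p below 0.05. Over all genes 2.29% were called, 1.09% as higher and 1.2% as lower. Nfe2l2 had 47.6 and 43.3 TPM in E11.5 XY libraries, against 71.3 and 55.1 TPM in E11.5 XX libraries, with no overlap (log2 change -0.46 ± 0.13, adjusted p = 0.0802). Gclc lay the other way, at 13.2 and 15.7 TPM in E11.5 XY and 10.4 and 6.97 TPM in E11.5 XX (log2 change 0.70 ± 0.21, adjusted p = 0.0885). Both Gclc libraries of E11.5 XY stood above both of E11.5 XX. Keap1 changed by -0.45 ± 0.17 (adjusted p = 0.157), and Acsl4 by 0.13 ± 0.15 (adjusted p = 0.676), its 20.5 and 17.3 TPM in E11.5 XY overlapping 18.6 and 15.9 TPM in E11.5 XX. Groups did not overlap for 2 of the 10 genes with E11.5 XY higher and 4 with E11.5 XY lower, against 22.4% and 22.1% of all genes. Gonadal somatic markers summed to 761 to 877 TPM in E11.5 XY and 974 to 1156 TPM in E11.5 XX libraries. In the same order, erythroid markers summed to 1851 to 2520 and 956 to 1329 TPM, and endothelial markers to 213 to 226 and 291 to 340 TPM. None of these markers was called, and their part in the values of the 10 genes was not tested.

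Between cultured and E11.5 cells, Acsl4 was higher in culture in both sexes. In XY it was the only 1 of the 10 genes called, where 5.66% of all genes were called, 2.62% as higher and 3.04% as lower. Control XY libraries had 31.3, 31.3 and 34.9 TPM of Acsl4, against 20.5 and 17.3 TPM in E11.5 XY libraries, a log2 change of 0.75 ± 0.13 (adjusted p = 0.00787). These groups did not overlap, and the call ended without E11.5 XY replicate 2 (adjusted p = 0.0586) and with only the libraries compared in the fit (0.0584). Gpx4 (log2 change 0.42 ± 0.13, adjusted p = 0.0749) and Prdx1 (0.34 ± 0.10, 0.063) were not called, with every control XY library above every E11.5 XY library. Under all 3 other scalings Prdx1 and Nfe2l2 were called higher, with adjusted p up to 0.0163 and 0.0422. Gpx4 was called higher without the 50 most abundant genes (0.0473) and without Dfo XY replicate 3 (0.0261). Gclc and Txnrd1 were the 2 genes with every control XY library below every E11.5 XY library, against 26.2% of all genes, and 6 genes lay above in every one, against 13.9%. Txnrd1 had 109, 100.2 and 129.6 TPM in control XY, against 136 and 148 TPM in E11.5 XY (log2 change -0.34 ± 0.12, adjusted p = 0.126). Without control XY replicate 3, Txnrd1 was called lower (adjusted p = 0.0388). Macrophage markers summed to 94.6 to 182 TPM in control XY and 27.1 to 45.2 TPM in E11.5 XY libraries, with 4 of 9 called higher. Endothelial markers summed to 71.0 to 152 TPM in control XY and 213 to 226 TPM in E11.5 XY libraries, with 2 of 7 called lower. The part of these cells in the values of the 10 genes was not tested.

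In XX, 5 of the 10 genes were called higher in culture than at E11.5, where 9.07% of all genes were called, 7.36% as higher and 1.71% as lower. Acsl4 had 47.5 and 52.1 TPM in control XX libraries, against 18.6 and 15.9 TPM in E11.5 XX libraries, a 2.79-fold difference (log2 change 1.48 ± 0.15, adjusted p = 8.01e-05). Srxn1 had 24.5 and 36.4 TPM in control XX, against 13.4 and 11.7 TPM in E11.5 XX (log2 change 1.19 ± 0.24, adjusted p = 0.0108). Both genes were higher in each cultured library than in either E11.5 library. Gclc changed by 0.85 ± 0.21 (adjusted p = 0.0244), Nfe2l2 by 0.69 ± 0.13 (0.00711) and Prdx1 by 0.41 ± 0.11 (0.0352). Gpx4 changed by 0.04 on the log2 scale (adjusted p = 0.938). Under quantile normalization only Acsl4 of the 10 was called, and in a fit of the compared libraries alone no gene of all those tested was called by limma, with 3093 at an unadjusted p below 0.05. Without E11.5 XX replicate 2 only Acsl4 was called, without control XX replicate 1 Gclc (adjusted p = 0.148) and Prdx1 (0.247) were not, and without control XX replicate 2 Srxn1 was not (0.0829). Prdx1 was close to the threshold and also lost its call without E11.5 XX replicate 1 (0.0641), control XY replicate 1 (0.0558) or 2 (0.0535), or Dfo XY replicate 1 (0.0546), the last 3 through the shared estimate of the spread. The 7 genes higher in every control XX than in every E11.5 XX library compare with 34.7% of all genes. Endothelial markers summed to 110.1 to 120.03 TPM in control XX and 291 to 340.5 TPM in E11.5 XX libraries, with 5 of 7 called lower. Erythroid markers summed to 158 to 178 TPM in control XX and 956 to 1329 TPM in E11.5 XX libraries, with 3 of 9 called lower. Gonadal somatic markers summed to 1263 to 1352 TPM in control XX and 974 to 1156 TPM in E11.5 XX libraries, with 1 of 6 called higher. Macrophage markers summed to 56.0 to 78.9 TPM in control XX and 37.8 to 42.2 TPM in E11.5 XX libraries, with 1 of 9 called higher. Their part in these changes was not tested.

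Whether the sex difference in culture differed from that at E11.5 was tested as an interaction, and none of the 10 genes was called, against 1.33% of all genes, although 4 had an unadjusted p below 0.05. Txnrd1 (log2 difference -0.77 ± 0.18, adjusted p = 0.0591), Gclc (-1.04 ± 0.28, 0.0789) and Acsl4 (-0.73 ± 0.20, 0.0796) came closest. Txnrd1 was called without control XY replicate 3 (adjusted p = 0.0259) or Dfo XY replicate 3 (0.037), and Gclc without E11.5 XX replicate 1 (0.0489). Dfo XY and control XX cells differ in both sex and treatment, so their levels are set side by side with no test. Acsl4 had its highest mean in Dfo XY (73.1 TPM), followed by control XX (49.8 TPM), control XY (32.5 TPM), E11.5 XY (18.9 TPM) and E11.5 XX (17.3 TPM), and only the last 2 overlapped. Nfe2l2 was highest in control XX (102 TPM), followed by Dfo XY (81.6 TPM), E11.5 XX (63.2 TPM), control XY (57.1 TPM) and E11.5 XY (45.4 TPM), with only E11.5 XX and control XY overlapping. Gclm had neighbouring groups overlapping at every step, from 12.7 TPM in control XY to 7.53 TPM in E11.5 XY.

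The wider pathways around these genes gave mixed counts in the Dfo comparison, in lists from textbook knowledge in which some genes stand more than once. Among 15 partners and regulators of NRF2, 4 rose and 2 fell, with a median log2 change of 0.10 against -0.17 over all genes. Over all genes 4.98% were called higher and 10.5% lower, against which this count and those of the other lists are to be read. Maff, a small MAF protein, was at 44.0 ± 4.5 TPM in Dfo XY and 6.73 ± 2.71 TPM in control XY (SD, n = 3 each), a log2 change of 2.59 (adjusted p = 0.000826). Sqstm1, which binds KEAP1 and carries it to autophagy, rose by 1.05 (0.000354), and Bach1, a repressor that competes for NRF2 sites, by 0.70 (0.000655, but 0.05 without the 2 Xist-holding Dfo libraries). Rbx1, a RING subunit of cullin ubiquitin ligases, fell by 0.42 (0.0232), a call that 7 of the 21 alternatives ended. Among 25 other NRF2 targets, 4 rose and 4 fell, with a median of 0.02. Hmox1, haem oxygenase, was at 170.5 ± 15.7 TPM in Dfo XY and 43.7 ± 4.4 TPM in control XY, a log2 change of 1.94 (adjusted p = 5.44e-05). Gsta4 and Gstp1, glutathione transferases, fell by 0.95 (0.000181) and 0.89 (0.00317) on the log2 scale, and Ugdh, which makes UDP-glucuronate, rose by 0.71 (0.00106, but 0.0548 without the 2 Xist-holding Dfo libraries). Hmox1 is also high in macrophages, whose markers are given above, and their part in its change was not tested.

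Among 20 genes of glutathione synthesis and use, 2 rose and 4 fell, with a median of -0.13. Chac1, which breaks glutathione down, was at 32.9 ± 3.2 TPM in Dfo XY and 4.74 ± 2.24 TPM in control XY (log2 change 2.62, adjusted p = 0.00022). Slc3a2, the partner chain of the cystine importer, rose by 0.89 (7.93e-05), whereas the importer itself, Slc7a11, was at 8.15 ± 2.52 TPM in Dfo XY and 8.25 ± 0.86 TPM in control XY (log2 change -0.05 ± 0.22, adjusted p = 0.9). Glrx5, a mitochondrial glutaredoxin of iron-sulfur cluster assembly, fell by 0.70 (0.00248), and Gpx8, a peroxidase of the endoplasmic reticulum, by 0.65 (0.00812). Of 21 thioredoxins, peroxiredoxins and sestrins, 2 rose and 4 fell, with a median of -0.12. Txnip, an inhibitor of thioredoxin, was at 116 ± 13 TPM in Dfo XY and 27.6 ± 7.0 TPM in control XY (log2 change 2.05, adjusted p = 9.97e-06), and Sesn2, a stress-induced sestrin, rose by 1.77 (9.96e-06). The peroxiredoxin Prdx2 fell by 0.54 (0.000585), and mitochondrial Prdx3 by 0.69 (0.0122), a call that 4 alternatives ended.

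Of 21 other ferroptosis suppressors, 19 were tested, 4 rose and 1 fell, with a median of -0.02. Scd1 and Scd2, which make monounsaturated fatty acids, rose by 1.06 (adjusted p = 0.000961) and 0.76 (0.000272), and Acsl3, which activates them, by 0.59 (0.00233). Nfs1, the cysteine desulfurase that supplies sulfur to iron-sulfur clusters, fell by 0.91 (0.00969, but 0.0519 with replicates 1 and 2 averaged). Aifm2, which reduces coenzyme Q at the membrane, was at 15.4 ± 2.2 TPM in Dfo XY and 15.6 ± 1.5 TPM in control XY and was not called (adjusted p = 0.968). Of 24 other drivers, 23 were tested, 4 rose and 1 fell, with a median of 0.17. Tfrc, the transferrin receptor that takes up iron, was at 249.2 ± 23.9 TPM in Dfo XY and 67.15 ± 14.99 TPM in control XY (log2 change 1.89, adjusted p = 3.1e-06), and Fads2, a desaturase of polyunsaturated fatty acids, rose by 0.70 (0.000764). Sat1, a polyamine acetyltransferase, rose by 0.51 (0.0107, ended by 3 alternatives), and Vdac3, a channel of the outer mitochondrial membrane, fell by 0.62 (0.00719, but 0.166 without the 2 Xist-holding Dfo libraries). Erythroid cells also carry Tfrc, and the part of their markers, given above, was not tested. Of 24 selenoproteins and their synthesis factors, 1 rose and 2 fell, near the share over all genes, with a median of -0.23. Selk, a selenoprotein of the endoplasmic reticulum, rose by 0.59 (0.000744), and Sepp1, a secreted selenium carrier, fell by 0.78 (0.00823). Sephs2, which makes the selenium donor, fell by 0.68 (0.0473), a call that 15 alternatives ended. Without the 2 Xist-holding Dfo libraries, the 7 lists had 3 and 0, 1 and 3, 2 and 3, 2 and 2, 3 and 1, 2 and 0, and 1 and 1 genes called higher and lower, in the order given here. Under median-of-ratios scaling they had 7 and 0, 4 and 3, 4 and 3, 4 and 2, 5 and 1, 7 and 1, and 2 and 1. Under quantile normalization they had 7 and 1, 4 and 3, 2 and 3, 4 and 4, 4 and 1, 6 and 1, and 2 and 2. Without the 50 most abundant genes they had 6 and 1, 4 and 3, 3 and 3, 4 and 3, 4 and 1, 5 and 1, and 2 and 1.

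**Figure D5:**
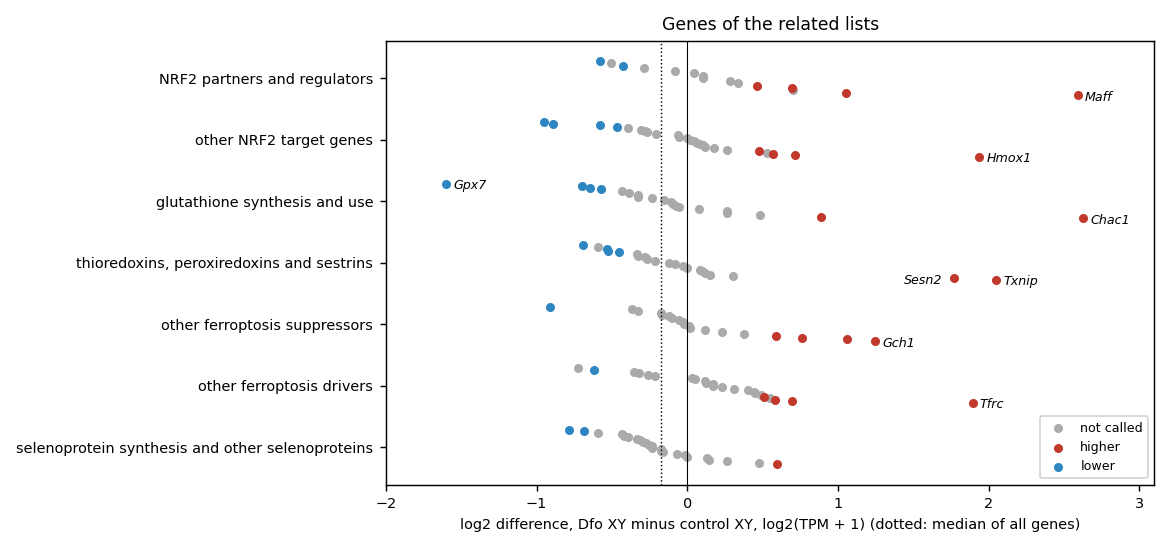
Log2 change between Dfo XY and control XY for each tested gene (points) of the 7 lists, in 1 row per list and ordered by value within it, with red (higher) and blue (lower) points for genes called by limma and the median of all genes as a dotted line at -0.17, and names for the called genes farthest from 0. Calls lie on both sides of 0 in each list, Chac1 (2.62) and Maff (2.59) being farthest to the right.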

How the data were processed

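RNA-seq values came from 12 libraries in 5 groups. The authors deposited TPM, 1 value per gene symbol and library, and the submitters' processing notes name mm10, R 4.1.2, RSEM and STAR 2.7.10b. Annotation, strand setting and filters are not stated there. The sums of the deposited TPM are equal in all libraries, so sequencing depth is unknown. Genes reaching 1 TPM in 2 or more libraries were kept, and log2(TPM + 1) was fitted with limma 3.58.1 in R 4.3.3, using all libraries, a coefficient per group and a variance trend; p-values were adjusted by Benjamini-Hochberg per contrast. The method was tested on simulated data, in which libraries were independent, unlike the close replicates 1 and 2. There it called 52% of 1.5-fold changes in the Dfo comparison and 12% between control XX and E11.5 XX. A gene that was not called may thus still have changed by that much. Positions came from GENCODE M21 and near-identical copies from blastn 2.17.0.

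The 10 genes and the lists were chosen with earlier results of these data known. From each list, up to 4 called genes with the smallest adjusted p in the Dfo comparison were named, with Nr5a1, Slc7a11, Aifm2 and Hmox1 in any case, and for the called member with the smallest adjusted p, the 3 genes most like it by Pearson's r. Alternatives covered the filter, pseudocount, scaling, replicate pairing, close libraries, Xist-holding libraries and leaving out each library. Deviations of same-numbered Dfo XY and control XY libraries from their group means correlated across genes (r = 0.21, 0.12 and 0.34, each above 0.1). Replicates 1 and 2 also correlated across numbers (0.18 and 0.14), so whether the numbers mark pairs is not settled. The main fit held no replicate block, and the block was fitted only as an alternative.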

Additional observations from a re-analysis of the deposited data

Results flagged for a closer look

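For Gclc and Txnrd1 the difference between culture and E11.5 ran in opposite directions in the sexes. In XY, every cultured control library lay below every E11.5 library, and in XX every cultured control library lay above every E11.5 library. Such gaps were common, the first being found for 26.2% and the second for 34.7% of all genes. The share of all genes with both was not counted. Gclc changed by -0.19 ± 0.19 on the log2 scale between control XY and E11.5 XY, and by 0.85 ± 0.21 between control XX and E11.5 XX (SE). Txnrd1 changed by -0.34 ± 0.12 between control XY and E11.5 XY, and by 0.43 ± 0.14 between control XX and E11.5 XX. The difference itself was tested as an interaction in limma and was called for neither gene, at -1.04 ± 0.28 for Gclc (adjusted p = 0.0789) and -0.77 ± 0.18 for Txnrd1 (adjusted p = 0.0591). These values lie near the threshold: Txnrd1 was called with the replicate number as a block (-0.87, adjusted p = 0.0385), and also when control XY replicate 3 (0.0259) or Dfo XY replicate 3 (0.037) was left out. Gclc was called without E11.5 XX replicate 1 (0.0489). Over the 21 alternatives the adjusted p ran from 0.0489 to 0.232 for Gclc and from 0.0259 to 0.198 for Txnrd1.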

How the results depend on the processing

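Acsl4 in the Dfo comparison was called under all 21 alternatives. Over the 10 genes, 4 were called in the Dfo comparison under each of the 3 other scalings (median-of-ratios, quantile, 50 most abundant genes left out), against 2 on TPM as deposited. With replicates 1 and 2 averaged, or without both Dfo libraries that hold Xist, 1 was called, with 850 and 901 genes called in all, against 2498. Between control XY and control XX, 2, 0 and 2 of the 10 were called under these scalings, against 5, with 1028, 614 and 1248 genes in all, against 4064, and 1774 with averaged replicates. At E11.5, 370 genes were called between the sexes, against 565 with no filter, 0 with only the compared libraries (2216 at an unadjusted p below 0.05), 94 with averaged replicates and 104 without both Xist-holding libraries. Between control XY and E11.5 XY, 3, 3 and 4 of the 10 were called under the scalings, 2 without both Xist-holding libraries and 0 with only the compared libraries, against 1. That fit called 210 genes and averaged replicates 195, against 913. Between control XX and E11.5 XX, 3 of the 10 were called under median-of-ratios scaling (851 genes in all), 1 under quantile normalization (704), 0 with only the compared libraries (0), 3 with averaged replicates (857) and 3 without both Xist-holding libraries, against 5 (1463). For the interaction, 34, 53 and 41 genes were called under the scalings, 20 with only the compared libraries, 7 with averaged replicates and 20 without both Xist-holding libraries, against 215. The cause of these moves was not tested.

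With the replicate number as a block, 3 of the 10 were called between control XY and control XX, the calls of Keap1 (adjusted p = 0.0562) and Srxn1 (0.0563) ending, and 1, Txnrd1 (0.0385), for the interaction, where 367 genes were called in all, and Txnrd1 was added in the Dfo comparison (adjusted p = 0.0412). In the other comparisons the libraries share only a number, same-numbered deviations correlating at -0.09 to 0.14.

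Directions of genes that were not called turned with the scaling. In the Dfo comparison, Keap1 was at 0.11, 0.084 and 0.053 on the log2 scale under median-of-ratios, quantile and top-50 scaling. Gclm was at 0.027 and 0.057 and Gpx4 at 0.032 and 0.024 under the first 2, and Prdx1 at 0.020 under the first. Between control XY and control XX, Prdx1 was at 0.15, 0.16 and 0.088. Nqo1 was at -0.041 between E11.5 XY and E11.5 XX under quantile normalization, and at -0.037 between control XX and E11.5 XX under median-of-ratios scaling. Gpx4 was there at -0.14, -0.049 and -0.066 under the 3 scalings. For the interaction, Keap1 was at 0.19, 0.20 and 0.14 and Prdx1 at 0.22, 0.18 and 0.16.

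Leaving out each library in turn gave 1490 to 2670 called genes in the Dfo comparison, 1920 to 4352 between control XY and control XX, 53 to 636 between E11.5 XY and E11.5 XX, 275 to 1489 between control XY and E11.5 XY, 432 to 1682 between control XX and E11.5 XX, and 14 to 731 for the interaction. Of the 10 genes, 2 to 5 were called between control XY and control XX, 1 to 2 between control XY and E11.5 XY, 1 to 6 between control XX and E11.5 XX and 0 to 1 for the interaction. In the Dfo comparison 2 were called, Acsl4 and Nfe2l2, with any 1 Dfo XY or control XY library left out. Nqo1 was added, as lower, with control XX replicate 1 or replicate 2 left out. Log2 changes that turned ran, in that comparison, from -0.31 to 0.0032 for Gclm, -0.21 to 0.014 for Gpx4 and -0.086 to 0.018 for Keap1. Between control XY and control XX they ran from -0.23 to 0.42 for Gclm and -0.45 to 1.09 for Nqo1. Between E11.5 XY and E11.5 XX they ran from -1.04 to 0.12 for Gclm, -0.16 to 0.39 for Nqo1 and -0.10 to 0.26 for Srxn1. Between control XX and E11.5 XX they ran from -0.089 to 0.56 for Gclm, -0.66 to 0.89 for Nqo1 and -0.0074 to 0.090 for Gpx4. For the interaction they ran from -0.019 to 1.14 for Gclm, -0.56 to 0.98 for Nqo1, -0.30 to 0.13 for Keap1 and -0.20 to 0.070 for Prdx1. Depth is unknown, so how precisely low genes such as Nqo1 were measured cannot be given.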

Other observations

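Other genes of the lists were called between culture and E11.5 or between the sexes. Slc7a11, the cystine importer, was called lower in XY than in XX both in culture (log2 change -1.03 ± 0.25, adjusted p = 0.0116) and at E11.5 (-1.37 ± 0.28, 0.0283). Its levels were low, at 1.55 and 1.71 TPM in E11.5 XY, close to the 1 TPM of the filter, against 6.14 and 5.49 TPM in E11.5 XX. In culture they were 8.6, 8.88 and 7.27 TPM in control XY and 17.4 and 18.3 TPM in control XX. Slc7a11 was higher in culture than at E11.5 in XY (1.81 ± 0.25, 0.00155) and in XX (1.47 ± 0.28, 0.00677). Scd1, which makes monounsaturated fatty acids, was higher in culture by 2.93 ± 0.18 in XY (2.83e-06) and by 3.94 ± 0.20 in XX (1.93e-07). Among 23 other ferroptosis drivers tested, 7 were called higher in control XY than in E11.5 XY and 8 in control XX than in E11.5 XX, with none lower, against 2.62% and 7.36% of all genes. The rise was not particular to drivers. Of 19 other suppressors tested, 5 were higher in XY and 5 in XX, and of 25 other NRF2 targets 5 and 9, with none lower. Among glutathione, thioredoxin and selenoprotein genes, calls ran both ways. In a fit of the compared libraries alone, 0 genes were called between control XX and E11.5 XX, with 3093 at an unadjusted p below 0.05. Between E11.5 XY and E11.5 XX such a fit also called 0 genes, with 2216 at an unadjusted p below 0.05. How the calls of these list genes fare under the other scalings was not examined in these comparisons. These genes were chosen after their values were seen, and adjusted p-values come from limma.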
